A study of Mus musculus with 9 samples.

Results

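The platelet-derived growth factor (PDGF) family was followed here through its 4 ligand genes, Pdgfa, Pdgfb, Pdgfc and Pdgfd, its 2 receptor genes, Pdgfra and Pdgfrb, and the gene of a receptor-like protein, Pdgfrl. These 7 genes were taken by symbol from the 24453 genes of the expression file, and all 7 were found and passed the filter on low reads. They were measured by RNA sequencing of mouse liver cells in 9 libraries, 3 in each of 3 groups, all labelled with the strain C57BL/6J. HSC libraries were hepatic stellate cells, the fat- and vitamin A-storing pericytes of the liver, separated by density gradient from wild-type mice with healthy livers. CCl4-fib libraries were CD45- GFP+ cells sorted by flow cytometry from Col1a2-GFP Tg mice, in which the collagen α2(I) promoter drives GFP, after 8 weeks of intraperitoneal carbon tetrachloride (CCl4), a liver toxin. NASH-fib libraries were CD45- GFP+ cells sorted in the same way from male MC/COL mice, which carry Col1a2-GFP and lack the melanocortin 4 receptor (MC4R-KO), after 20 weeks of Western diet begun at 8 weeks of age. The sources used here give no age for the HSC and CCl4-fib mice. Each library held RNA from cells pooled over 3 to 5 mice, so the spread is between pools. The sort takes any CD45- cell with an active collagen promoter, HSCs carried no transgene and were not sorted on GFP, and NASH-fib differ from CCl4-fib in genotype, diet and toxin at once. Isolation and disease, or genotype and diet, therefore cannot be told apart in these comparisons.

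PDGFs are dimeric growth factors for mesenchymal cells. PDGF-A and PDGF-B are cut to their active form inside the cell, whereas PDGF-C and PDGF-D are secreted with an extra CUB domain that a protease must remove. The A, B and C chains bind receptor α, and the B and D chains bind receptor β, a classical growth and migration signal of stellate cells in liver injury. Bound receptors dimerize and phosphorylate themselves, which recruits phosphatidylinositol 3-kinase, phospholipase Cγ and the Ras pathway.

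The deposited values are read numbers multiplied by 1 factor per library, and the libraries held 3071070 (HSC replicate 2) to 5634273 (CCl4-fib replicate 1) reads on genes. A single read was worth 0.794 to 1.46 in value, so a gene with 3 reads had a value of 2.38 to 4.37, a floor that covers counting error only. Values of a gene per group are given as mean ± SD (n = 3). Fold changes and their standard errors (SE) are from limma on log2(value + 1), which understates changes of low genes, and a gene was called at a fold change of at least 1 in size on the log2 scale and a Benjamini-Hochberg adjusted p under 0.05 over 13651 genes. HSC replicate 2 and NASH-fib replicate 1 were the libraries with the fewest reads, and their deviations from their group means ran together across genes (r = 0.65). The labels of both also share a prefix that reads as a date, and CCl4-fib replicate 1 carries it too, but what it dates is not stated. Deviations of CCl4-fib replicate 1 did not run with theirs (r = -0.07 with HSC replicate 2 and -0.13 with NASH-fib replicate 1). In bulk libraries fewer cells of a type and less RNA per cell cannot be told apart.

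Against HSCs the calls fell on ligand genes and on Pdgfrl, and neither signalling receptor was called. Pdgfd and Pdgfa were called higher in NASH-fib than in HSCs, 2 of the 7 genes, and 0 were called lower. Of all tested genes, 8.23% were called higher and 4.3% lower in that comparison. In CCl4-fib, 3 genes were called higher than in HSCs, Pdgfc, Pdgfrl and Pdgfa, and 0 lower, where 16.2% of all tested genes were called higher and 11.7% lower. Between NASH-fib and CCl4-fib none of the 7 was called by limma, beside 4.97% of all tested genes called higher and 5.66% lower. An unadjusted p under 0.05 was reached by 4, a count for which no share over all genes was computed. There edgeR called 1 (Pdgfd), beside 802 of all 13651 tested genes called higher and 563 lower. DESeq2 called 2 (Pdgfd and Pdgfb), beside 1518 of the 13651 called higher and 1161 lower. The 3 comparisons share libraries, so they are given side by side and not as separate evidence.

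**Figure D1:**
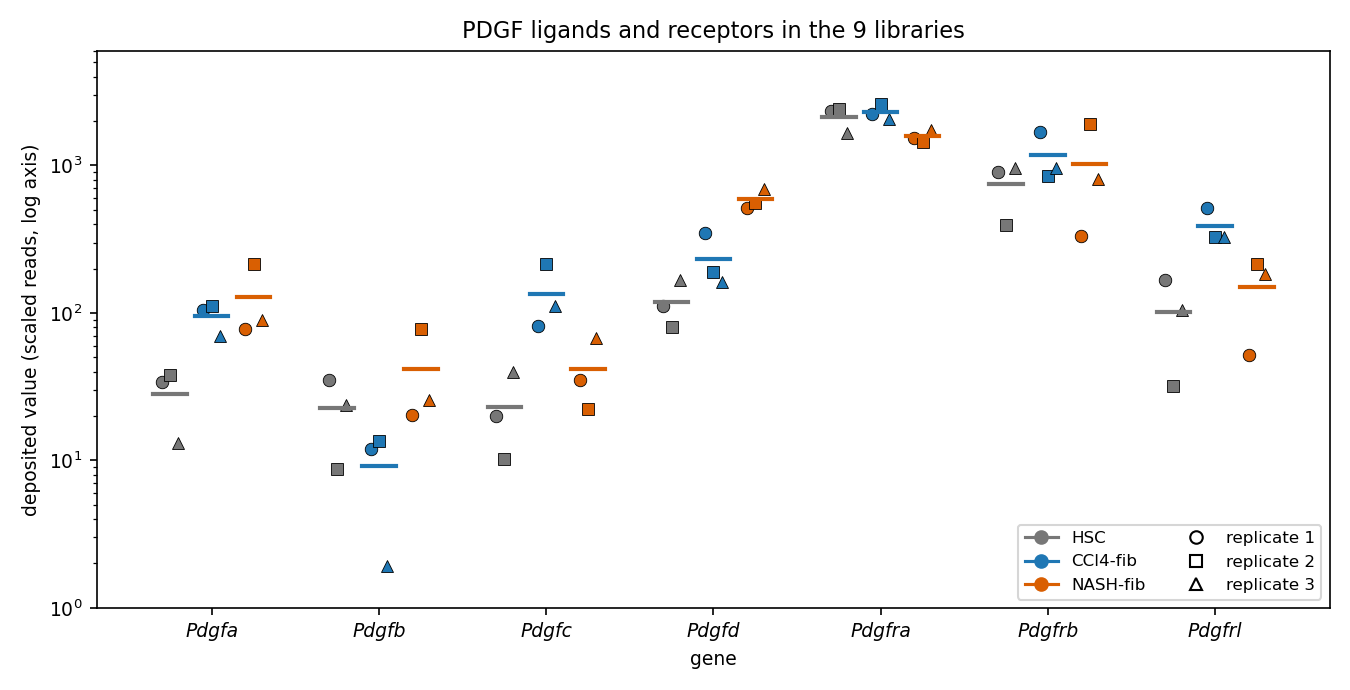
Deposited values (reads scaled to a common library total, log axis) of the 7 genes, with 1 point per library, symbols for the replicate and a bar at the mean of each group. The 3 NASH-fib libraries sit above all others for Pdgfd, the 3 CCl4-fib libraries sit above all others for Pdgfc and Pdgfrl, and the 3 HSC libraries sit below all others for Pdgfa.

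Libraries of the compared groups did not overlap for 2 of the 7 genes between NASH-fib and HSCs (Pdgfa and Pdgfd), against 24.4% of all tested genes. They did not overlap for 3 genes between CCl4-fib and HSCs (Pdgfa, Pdgfc and Pdgfrl), against 48.6% of all tested genes. Comparing NASH-fib to CCl4-fib, 5 members did not overlap, with Pdgfb and Pdgfd higher and Pdgfc, Pdgfra and Pdgfrl lower in every NASH-fib library, against 39.1% of all tested genes. The median log2 fold change of the 7 genes was 0.79 for NASH-fib against HSCs, 0.94 for CCl4-fib against HSCs and -0.48 for NASH-fib against CCl4-fib. The medians over all tested genes were -0.02, 0.18 and -0.11.

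Pdgfd (NM_027924, mm10 chromosome 9, 6168612 to 6377519, plus strand, 7 exons) encodes the CUB-domain ligand that signals through receptor β. The genomic sequence before it is shown with that before Pdgfc because each of these ligands was highest in a different fibroblast group. These are the 250 bases before the RefSeq start site, from RefSeq on GRCm38.p6, 5′ to 3′ on the plus strand, and neither overlaps an annotated exon. Capitals mark TATAAA, the one motif found among those searched on both strands (the TATA box TATAAA, the GC box GGGCGG, the CCAAT box, the AP-1 site TGACTCA and the EGR site GCGGGGGCG).
Pdgfd, chr9:6168236-6168485: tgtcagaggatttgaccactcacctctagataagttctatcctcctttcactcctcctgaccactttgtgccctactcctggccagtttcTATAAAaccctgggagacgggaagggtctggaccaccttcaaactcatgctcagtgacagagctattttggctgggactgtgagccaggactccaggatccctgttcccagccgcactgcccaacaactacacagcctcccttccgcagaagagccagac
Pdgfc, chr3:81036166-81036415: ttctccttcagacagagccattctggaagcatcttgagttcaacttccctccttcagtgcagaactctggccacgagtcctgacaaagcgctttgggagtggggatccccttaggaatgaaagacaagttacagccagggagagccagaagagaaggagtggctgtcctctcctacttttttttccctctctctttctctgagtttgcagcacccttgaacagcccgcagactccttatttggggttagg
The Pdgfd window held 1 TATAAA, 160 to 155 bases before the start site, a motif found in 12.4% of 32851 windows of the same length and place. The start site of the Pdgfd transcript in the expression file lies 126 bases downstream of the RefSeq site used for the window. The Pdgfc window held none of these motifs, of which the GC box was present in 32.7%, the CCAAT box in 33.8%, the AP-1 site in 4.46% and the EGR site in 2.57% of all windows. G and C made up 53.6% of the Pdgfd window and 50.8% of the Pdgfc window, beside a median of 52.4% over all windows.

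Pdgfd was upregulated in NASH-fib. Its values were 515, 557 and 694 in NASH-fib replicates 1, 2 and 3. They were 350, 190 and 161 in CCl4-fib pools, and 111, 80.1 and 167 in HSCs. Every NASH-fib library was above every other library, while CCl4-fib and HSC libraries overlapped, CCl4-fib replicate 3 lying just under HSC replicate 3. The mean was 589 ± 93.5 in NASH-fib and 120 ± 44.3 in HSCs, a log2 fold change of 2.34 (SE 0.41, adjusted p = 0.0034). NASH-fib replicate 1 was 2.67 above the HSC library that shares its date on the log2 scale, the one pair of libraries of these groups with a common date. With the date as a term in the fit, the log2 fold change was 2.53 and the adjusted p 0.068. Against CCl4-fib (234 ± 102) the log2 fold change was 1.40 (SE 0.41), with an adjusted p of 0.055 from limma, 0.0497 from edgeR and 0.0074 from DESeq2. Within the shared dates NASH-fib exceeded CCl4-fib by 0.56 with 1 library each and by 1.94 with 2 libraries against 1, on the log2 scale. CCl4-fib against HSCs gave 0.94 (SE 0.41, adjusted p = 0.11). Pdgfd stands on the study's list of genes specific for NASH-fib, which was drawn up from these libraries and is not independent evidence of the direction.

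Pdgfa (NM_008808, mm10 chromosome 5, 138976972 to 138994953, minus strand, 6 exons) encodes the ligand that binds receptor α. Its values were 33.9, 37.9 and 13.2 in HSC pools, 105, 111 and 69.7 in CCl4-fib pools, and 77.5, 216 and 89.4 in NASH-fib. Both fibroblast groups lay above all HSC libraries and overlapped with each other, NASH-fib replicate 2 being the highest. NASH-fib (127 ± 76.5) exceeded HSCs (28.3 ± 13.3) by 2.11 on the log2 scale (SE 0.55, adjusted p = 0.030). CCl4-fib (95.3 ± 22.4) exceeded HSCs by 1.82 (SE 0.55, adjusted p = 0.033). NASH-fib against CCl4-fib gave 0.29 (SE 0.55, adjusted p = 0.75). The Pdgfa calls rested on few reads, 11 to 29 in an HSC library. The call in NASH-fib was lost without NASH-fib replicate 2 (log2 fold change 1.65, adjusted p = 0.12), without NASH-fib replicate 3 (2.28, 0.060), without HSC replicate 1 (2.30, 0.056) or 3 (1.65, 0.097), and, through the shared spread, without CCl4-fib replicate 1 (2.11, 0.05003) or 2 (2.11, 0.051). The call in CCl4-fib was lost without any 1 of the 3 CCl4-fib libraries (adjusted p 0.10, 0.11 and 0.051 without replicates 1, 2 and 3), without HSC replicate 1 (0.053) and without HSC replicate 3 (0.088). Within shared dates Pdgfa was higher than in HSCs by 1.01 in NASH-fib, and by 1.44 and 2.99 in CCl4-fib, with 1 library a side. With the date as a term the adjusted p was 0.28 for NASH-fib and 0.10 for CCl4-fib. In GENCODE, upstream exons of other Pdgfa transcripts share bases with the opposite-strand gene 6330403L08Rik. Reads of both strands were counted, so reads of such partners on shared bases cannot be told apart.

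Pdgfc (NM_019971, mm10 chromosome 3, 81036416 to 81214031, plus strand, 6 exons), the gene of the CUB-domain ligand for receptor α, was upregulated in CCl4-fib. It had values of 81.0, 213 and 112 in CCl4-fib, above all 6 other libraries. HSCs had 19.9, 10.2 and 39.5, and NASH-fib 35.3, 22.3 and 67.8. The HSC and NASH-fib ranges overlapped. CCl4-fib (135 ± 69.4) exceeded HSCs (23.2 ± 14.9) by 2.57 on the log2 scale (SE 0.63, adjusted p = 0.012), and by 2.87 and 2.41 within the shared dates. Without CCl4-fib replicate 2, the highest library, the log2 fold change was 2.18 and the adjusted p 0.065. NASH-fib (41.8 ± 23.4) against CCl4-fib gave -1.70 (SE 0.63, adjusted p = 0.11), and NASH-fib against HSCs gave 0.87 (SE 0.63, adjusted p = 0.51). The first exon of Pdgfc shares bases with the opposite-strand gene Gm16000 in GENCODE.

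Pdgfb (NM_011057, mm10 chromosome 15, 79995876 to 80014808, minus strand, 7 exons), whose product binds both receptors and is made mainly by endothelial cells and platelets, was the scarcest ligand in CCl4-fib. Only 2 to 88 reads fell on it in a library. Values were 35.1, 8.74 and 23.9 in HSC pools, 11.9, 13.6 and 1.91 in CCl4-fib pools, and 20.4, 78.4 and 25.6 in NASH-fib. Every NASH-fib library exceeded every CCl4-fib library, HSCs overlapped with both, and CCl4-fib replicate 3 lay under the floor of 3 reads with 2 reads. NASH-fib (41.4 ± 32.1) against CCl4-fib (9.14 ± 6.32) gave a log2 fold change of 2.12 (SE 0.82), with an adjusted p of 0.12 from limma, 0.093 from edgeR and 0.031 from DESeq2. Within shared dates the difference was 0.73 and 3.98 on the log2 scale, the latter resting on the CCl4-fib library with 2 reads. Against HSCs (22.6 ± 13.2) the values were 0.79 (SE 0.82, adjusted p = 0.69) for NASH-fib and -1.33 (SE 0.82, adjusted p = 0.25) for CCl4-fib. Endothelial markers differed between the same groups, and the platelet sums were lower in NASH-fib than in the other groups. The summed value of 8 endothelial markers (Pecam1, Cdh5, Kdr, Stab1, Stab2, Lyve1, Clec4g and Tie1) was 5439 to 11861 in HSCs, 200 to 221 in CCl4-fib and 932 to 3062 in NASH-fib, and none of them was at 0 in a whole group. Of these 8, all were called lower in CCl4-fib than in HSCs, beside 11.7% of all tested genes. In NASH-fib 6 were called lower than in HSCs, beside 4.3%, and 0 higher. Between the fibroblasts 6 were called higher in NASH-fib than in CCl4-fib, beside 4.97%. The 5 platelet markers summed to 83.0 to 276 in HSCs, 87.3 to 142 in CCl4-fib and 8.16 to 58.8 in NASH-fib, with Gp1ba at 0 in CCl4-fib and Gp9 at 0 in NASH-fib. The HSC and CCl4-fib sums overlapped. Of 3 platelet markers tested, 0 were called in NASH-fib against HSCs. Ppbp was called lower in CCl4-fib than in HSCs, beside 11.7% of all tested genes. Itga2b was called lower in NASH-fib than in CCl4-fib, beside 5.66%. The part of either cell type in the Pdgfb values was not tested.

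**Figure D2:**
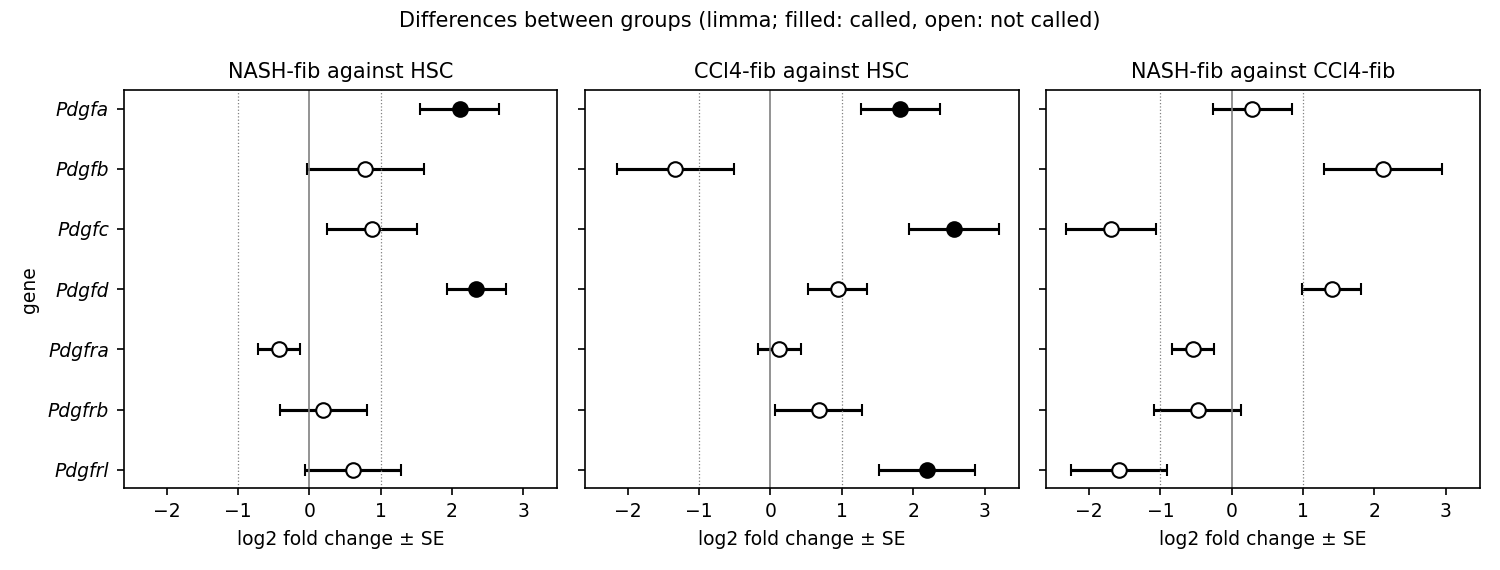
Log2 fold change of the 7 genes in each comparison (points, with SE bars, from limma on log2(value + 1)), filled where the gene was called and open where it was not, with dotted lines at -1 and 1. Filled points are Pdgfa and Pdgfd for NASH-fib against HSC, Pdgfa, Pdgfc and Pdgfrl for CCl4-fib against HSC, and none for NASH-fib against CCl4-fib.

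The gene of receptor α, Pdgfra (NM_011058, mm10 chromosome 5, 75152291 to 75198204, plus strand, 23 exons), was highly expressed in every library and was called in no comparison. Values were 2334, 2432 and 1652 in HSC pools, 2227, 2619 and 2076 in CCl4-fib pools, and 1537, 1444 and 1752 in NASH-fib. All 3 NASH-fib libraries lay below the CCl4-fib libraries, and HSC replicate 3 lay within the NASH-fib range. NASH-fib (1578 ± 158) differed from CCl4-fib (2307 ± 280) by -0.55 on the log2 scale (SE 0.30, adjusted p = 0.25) and from HSCs (2140 ± 425) by -0.42 (SE 0.30, adjusted p = 0.49). CCl4-fib against HSCs gave 0.12 (SE 0.30, adjusted p = 0.78), a sign that turned in edgeR on the recovered reads (-0.01). In GENCODE, exons of some Pdgfra transcripts share bases with Gm42802 and Gm42803 on the opposite strand and with the microRNA gene Mir7025.

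The gene of receptor β, Pdgfrb (NM_001146268, mm10 chromosome 18, 61045150 to 61085067, plus strand, 23 exons), varied widely within groups and was called in no comparison. Its values were 898, 396 and 962 in HSC pools, 1700, 854 and 960 in CCl4-fib pools, and 330, 1910 and 814 in NASH-fib. The NASH-fib range spanned that of both other groups. The means were 752 ± 310 in HSCs, 1171 ± 461 in CCl4-fib and 1018 ± 809 in NASH-fib. NASH-fib against HSCs gave a log2 fold change of 0.19 (SE 0.61, adjusted p = 0.93), CCl4-fib against HSCs 0.67 (SE 0.61, adjusted p = 0.43) and NASH-fib against CCl4-fib -0.48 (SE 0.61, adjusted p = 0.63). The lowest library of HSCs and of NASH-fib were the pair with the fewest reads. With both left out, an alternative chosen after the data were seen, NASH-fib against CCl4-fib turned to 0.16.

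The receptor-like gene Pdgfrl (NM_026840, mm10 chromosome 8, 40926233 to 40990770, plus strand, 6 exons) encodes a protein that resembles the outer part of the receptors and has no kinase domain. It was upregulated in CCl4-fib, with values of 516, 328 and 326. HSCs had 167, 32.0 and 104, and NASH-fib 51.7, 214 and 184. CCl4-fib lay above all 6 other libraries, and HSC replicate 2 and NASH-fib replicate 1 were again the lowest of their groups. CCl4-fib (390 ± 109) exceeded HSCs (101 ± 67.6) by 2.19 on the log2 scale (SE 0.67, adjusted p = 0.034), and by 3.97 and 1.65 within shared dates. The adjusted p rose to 0.11 without HSC replicate 2, where the log2 fold change was 1.52, and to 0.12, 0.080 and 0.071 without CCl4-fib replicates 1, 2 and 3. With the replicate number as a block it was 0.063. NASH-fib (150 ± 86.2) against CCl4-fib gave -1.58 (SE 0.67, adjusted p = 0.15), and NASH-fib against HSCs 0.61 (SE 0.67, adjusted p = 0.71).

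Levels of different genes were compared per kilobase of exon. In HSCs the order was Pdgfra (328 ± 65.1 per kb), Pdgfrb (140 ± 57.5), Pdgfd (66.9 ± 24.8), Pdgfrl (66.3 ± 44.3), Pdgfa (28.0 ± 13.1), Pdgfb (7.70 ± 4.51) and Pdgfc (6.61 ± 4.25). Neighbours in that order overlapped between libraries except Pdgfra with Pdgfrb and Pdgfa with Pdgfb. In CCl4-fib Pdgfra (353 ± 42.9 per kb) was followed by Pdgfrl (256 ± 71.4), Pdgfrb (217 ± 85.6), Pdgfd (131 ± 57.0), Pdgfa (94.3 ± 22.2), Pdgfc (38.6 ± 19.8) and Pdgfb (3.12 ± 2.16). There Pdgfc stood apart from both Pdgfa and Pdgfb, and the other neighbours overlapped. In NASH-fib a ligand came first, Pdgfd (330 ± 52.4 per kb), apart from Pdgfra (242 ± 24.2). Pdgfrb (189 ± 150), Pdgfa (126 ± 75.7) and Pdgfrl (98.2 ± 56.6) followed with overlapping libraries, and Pdgfb (14.1 ± 10.9) and Pdgfc (11.9 ± 6.69) came last, apart from Pdgfrl and overlapping each other. Among all tested genes ranked per kb, Pdgfd went from percentile 66.4 in HSCs to 78.1 in CCl4-fib and 90.4 in NASH-fib. Pdgfra stayed between percentiles 87.7 and 90.5.

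The balance of the 2 receptors was read within each library, where scaling cancels. Pdgfra exceeded Pdgfrb per kb in 8 of 9 libraries, the exception being NASH-fib replicate 2 with a ratio of 0.624. Ratios were 2.15, 5.07 and 1.42 in HSC pools, 1.08, 2.53 and 1.79 in CCl4-fib pools, and 3.84, 0.624 and 1.78 in NASH-fib. The highest ratio in HSCs and in NASH-fib came from the pair of libraries with the fewest reads, and the groups overlapped throughout. The mean log2 ratio was 1.32 ± 0.94 in HSCs, 0.76 ± 0.62 in CCl4-fib and 0.70 ± 1.32 in NASH-fib. Exact two-sided permutation tests gave p = 0.5 for NASH-fib against HSCs, 0.5 for CCl4-fib against HSCs and 0.9 for NASH-fib against CCl4-fib (adjusted over the 3 pairs 0.75, 0.75 and 0.9), in a design where 3 against 3 cannot go below 0.1.

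**Figure D3:**
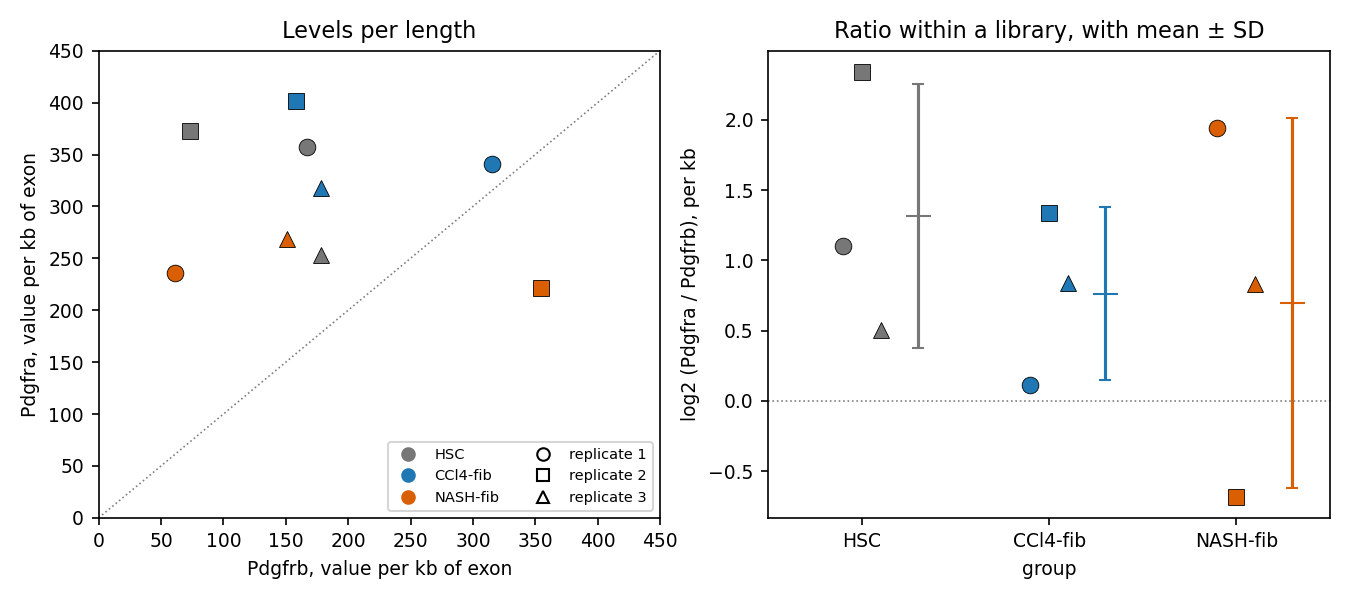
Left, Pdgfra against Pdgfrb in each library, both as value per kb of exon, with a dotted line at equal levels. Right, the log2 ratio of Pdgfra to Pdgfrb per kb in each library by group, with mean ± SD beside the points. NASH-fib replicate 2 is the single library below the line of equality, and the 3 groups overlap.

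By the Pearson correlation of log2(value + 1) over the 9 libraries, the genes nearest to Pdgfd were C2 (r = 0.98), Sox6 (0.97) and Cacnb4 (0.97). Those nearest to Pdgfa were Atp1b2 (0.96), Vwa1 (0.96) and Tnnt2 (0.95), and those nearest to Pdgfc were Gdpd2 (0.97), Spc25 (0.95) and Heg1 (0.95). Pdgfrl ran with Oxnad1 (0.98), Rrp9 (0.98) and Wrb (0.97), and Pdgfrb with Dpf2 (0.97), Gja4 (0.97) and Depdc5 (0.96). Pdgfra ran with 1190007I07Rik (0.94), Psmd1 (0.94) and Zmynd15 (0.92), and Pdgfb with Rab3d (0.90), Trpc1 (0.90) and Snrnp40 (0.89). Among the 7 genes themselves the closest pair was Pdgfrb and Pdgfrl (0.81), followed by Pdgfc and Pdgfrl (0.72), and the most opposed was Pdgfd and Pdgfra (-0.69). These values describe 9 libraries that fall into 3 groups and share the scaling and depth of each library.

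The other genes of the pathway were followed through lists written by hand, with 78 genes of which 73 were tested. Against HSCs, 5 passed as higher and 6 as lower in NASH-fib, which is 6.85% and 8.22% of those tested beside 8.23% and 4.3% of all genes. In CCl4-fib 16 passed as higher and 16 as lower, 21.9% each way beside 16.2% and 11.7%. Of NASH-fib against CCl4-fib, 1 call was higher and 10 were lower, 1.37% and 13.7% beside 4.97% and 5.66%. That split was 2 and 7 by edgeR and 6 and 12 by DESeq2, and leaving out CCl4-fib replicate 2 gave 1 and 2, as did leaving out NASH-fib replicate 3. Their median log2 fold changes were -0.34, -0.31 and -0.12, beside medians of -0.02, 0.18 and -0.11 over all tested genes. Over all genes 678 were called higher and 773 lower in the last comparison, a split that edgeR turned to 802 and 563 and DESeq2 to 1518 and 1161. Of the pathway genes named here, Abl1, Csf1r, Jak1, Junb, Pik3r2, Rapgef1 and Spry1 share exonic bases with an opposite-strand gene, and Nrp1 with a microRNA gene, whose reads cannot be told apart.

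Of the proteases that process the ligands, 2 of 5 tested genes were called higher in each fibroblast group against HSCs (beside 8.23% of all genes in NASH-fib and 16.2% in CCl4-fib), 0 lower, and 0 were called between the fibroblast groups. Plat, the gene of tissue plasminogen activator, which removes the CUB domain of PDGF-C, was called in both. Its values were 19.9, 20.4 and 65.8 in HSC pools, 2918, 2635 and 2977 in CCl4-fib pools, and 310, 1695 and 2836 in NASH-fib. Both fibroblast groups lay above all HSC libraries, by 6.52 on the log2 scale in CCl4-fib (SE 0.74, adjusted p = 0.00016) and 5.21 in NASH-fib (SE 0.74, adjusted p = 0.00096). Plau, the gene of urokinase, which can process PDGF-D, passed in CCl4-fib (147 ± 54.5 against 48.8 ± 38.0 in HSCs, log2 fold change 1.87, adjusted p = 0.048), a call that edgeR, DESeq2 and 7 of 9 fits without 1 library did not make. Pcsk5, a proprotein convertase, passed in NASH-fib (183 ± 51.6 against 48.9 ± 20.7, log2 fold change 1.92, adjusted p = 0.023), and 4 of 9 fits without 1 library lost it.

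Of the co-receptors and binding proteins, 5 of 7 were tested, and Adipoq was at 0 in HSCs and in NASH-fib and A2m in HSCs. Against HSCs 1 was called lower in NASH-fib (Itgb3) and 2 in CCl4-fib (Nrp1 and Itgb3), beside 4.3% and 11.7% of all tested genes. In both, 0 were called higher, beside 8.23% and 16.2%. Nrp1, neuropilin 1, a co-receptor for PDGF and vascular endothelial growth factor, had values of 4345, 5603 and 3118 in HSC pools, 709, 502 and 408 in CCl4-fib pools, and 2694, 1706 and 1594 in NASH-fib. The 3 groups did not overlap. It was lower in CCl4-fib than in HSCs (log2 fold change -3.01, SE 0.37, adjusted p = 0.00025) and higher in NASH-fib than in CCl4-fib (1.88, SE 0.37, adjusted p = 0.015), the latter call being lost without CCl4-fib replicate 2 or 3. Nrp1 is also expressed by sinusoidal endothelium, whose markers ordered the groups in the same way, and their part in Nrp1 was not tested. Integrin β3, Itgb3, was lower than in HSCs (820 ± 529) in NASH-fib (115 ± 41.7, log2 fold change -2.72) and in CCl4-fib (120 ± 46.5, -2.67), with adjusted p of 0.0058 and 0.0037, and the call in NASH-fib was lost with the date as a term. Lrp1, an endocytic receptor that binds PDGF receptor β, was lower in NASH-fib (721 ± 496) than in CCl4-fib (2591 ± 419, log2 fold change -2.16, adjusted p = 0.044), and 6 of 9 fits without 1 library lost that call. The Lrp1 call was also lost by edgeR, with no filter, in the fit of 2 groups only, with the replicate block and with the date as a term.

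Of 38 adaptors, kinases and effectors, all tested, 0 passed as higher and 2 as lower in NASH-fib against HSCs, beside 8.23% and 4.3% of all tested genes. The 2 were Rapgef1, an exchange factor for Rap1 (51.6 ± 22.2 against 214 ± 99.1), and the adaptor Nck2 (401 ± 189 against 1363 ± 701), with adjusted p of 0.022 and 0.045. The Nck2 call was lost in 7 of 9 fits without 1 library and by edgeR, and the Rapgef1 call in 3 of 9, without HSC replicate 1 or 3 or NASH-fib replicate 3. Both were lost in the fit of 2 groups only, with the replicate block and with the date as a term. In CCl4-fib 4 were called higher than in HSCs and 8 lower, beside 16.2% and 11.7% of all tested genes. The share called higher lay under the background and the share called lower above it. The kinase genes Akt2 (3.06, adjusted p = 0.0077) and Akt1 (1.83, adjusted p = 0.033) and the regulatory subunit Pik3r2 (2.27, adjusted p = 0.024) had the largest log2 fold changes upward. Only 2, 6 and 9 reads fell on Pik3r2 in the HSC libraries. The exchange factor Vav3 (-2.85, adjusted p = 0.0030), the kinase Jak1 (-1.95, adjusted p = 0.0032) and the catalytic subunit Pik3ca (-1.55, adjusted p = 0.021) had the largest downward. The calls of Akt1, Pik3r2 and Pik3ca were lost in 5, 3 and 4 of 9 fits without 1 library and with the date as a term, whereas those of Akt2, Vav3 and Jak1 were made in all of these fits. Between the fibroblasts 0 passed as higher and 4 as lower in NASH-fib, beside 4.97% and 5.66% of all tested genes. Akt1 was at 36.7 ± 16.5 against 264 ± 45.1 (-2.90, adjusted p = 0.015), Akt2 at 90.3 ± 63.6 against 484 ± 53.6 (-2.76, adjusted p = 0.031) and the kinase Abl1 at 74.9 ± 22.2 against 238 ± 50.4 (-1.68, adjusted p = 0.023). Without 1 library, 2 of 9 fits lost the Akt1 call, 5 the Akt2 call and 3 the Abl1 call, and all of them were lost when CCl4-fib replicate 2 was left out, or NASH-fib replicate 3. The Abl1 call was also lost with the date as a term. Akt2 libraries were 529, 424 and 498 in CCl4-fib, 23.1, 150 and 98.3 in NASH-fib, and 26.9, 62.6 and 108 in HSC pools, so CCl4-fib stood above the other groups, which overlapped.

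Of 14 negative regulators, all tested, 0 passed as higher and 1 as lower in NASH-fib against HSCs, beside 8.23% and 4.3% of all tested genes. In CCl4-fib against HSCs 3 passed as higher and 4 as lower, beside 16.2% and 11.7%. NASH-fib against CCl4-fib gave 0 higher and 1 lower, beside 4.97% and 5.66%. Spry1, Sprouty 1, a feedback inhibitor of receptor tyrosine kinase signalling, fell in both fibroblast groups. Its values were 876, 750 and 864 in HSC pools, 69.1, 60.4 and 77.3 in CCl4-fib pools, and 150, 301 and 98.3 in NASH-fib, and the groups did not overlap. The log2 fold change against HSCs was -3.57 in CCl4-fib (SE 0.42, adjusted p = 0.00019) and -2.33 in NASH-fib (SE 0.42, adjusted p = 0.0040), both called in all 9 fits without 1 library, and the latter lost with the date as a term. In CCl4-fib the ubiquitin ligase gene Cbl (-1.83, adjusted p = 0.022) and the phosphatase gene Ptprj (-1.24, adjusted p = 0.030) were lower than in HSCs. The scaffold gene Slc9a3r1 (2.60, adjusted p = 0.019), the phosphatase gene Ptpn2 (1.47, adjusted p = 0.012) and the ubiquitin ligase gene Cblb (1.35, adjusted p = 0.041) were higher. Of the 9 fits without 1 library, 6 lost the Cblb call, which edgeR did not make, 5 that of Ptprj, 4 that of Cbl, 3 that of Slc9a3r1 (each CCl4-fib library) and 1 that of Ptpn2 (CCl4-fib replicate 2). With the date as a term all of these but Slc9a3r1 were lost. Ptpn2 was lower in NASH-fib (154 ± 25.7) than in CCl4-fib (390 ± 62.5, -1.33, adjusted p = 0.042), a call lost in 7 of 9 fits without 1 library, by edgeR, with upper-quartile scaling, with the replicate block and with the date as a term.

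Of 10 genes known to be induced by PDGF in fibroblasts, 9 were tested. Against HSCs 3 were called higher in NASH-fib and 7 in CCl4-fib, beside 8.23% and 16.2% of all tested genes, and 0 were called lower. In NASH-fib 4 were called lower than in CCl4-fib, beside 5.66% of all tested genes, and 0 higher. Serum and many other stimuli induce the same genes, and tissue digestion and sorting do so too. Fos, an immediate early transcription factor gene, had values of 108, 84.5 and 92.1 in HSC pools, 4763, 6128 and 3392 in CCl4-fib pools, and 3400, 2730 and 2225 in NASH-fib. HSC libraries lay far below the others, and the CCl4-fib and NASH-fib ranges overlapped by a narrow margin. The log2 fold change against HSCs was 5.60 in CCl4-fib (adjusted p = 7.4e-06) and 4.85 in NASH-fib (adjusted p = 1.7e-05). Egr1 (3.49, adjusted p = 8.5e-05) and Junb (2.33, adjusted p = 0.0056), transcription factor genes of the same early response, were called higher in NASH-fib than in HSCs, Junb not with the date as a term. The chemokine gene Cxcl1 (5.12, adjusted p = 0.00058) and the early response gene Ier3 (4.44, adjusted p = 6.3e-05) followed Fos in CCl4-fib against HSCs. Both were lower in NASH-fib than in CCl4-fib, Cxcl1 with 106 ± 24.9 against 1374 ± 392 (-3.67, adjusted p = 0.016, lost without CCl4-fib replicate 2 or NASH-fib replicate 3) and Ier3 with 124 ± 30.2 against 1364 ± 648 (-3.37, adjusted p = 0.0056). The monocyte chemokine gene Ccl2 was at 932, 995 and 1043 in HSC pools, 2495, 2633 and 3837 in CCl4-fib pools, and 324, 564 and 547 in NASH-fib. NASH-fib libraries were the lowest and CCl4-fib libraries the highest without overlap, and NASH-fib was below CCl4-fib by -2.66 on the log2 scale (SE 0.33, adjusted p = 0.0056). HSCs were not sorted, so isolation and fibrosis cannot be told apart for the calls against HSCs.

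**Figure D4:**
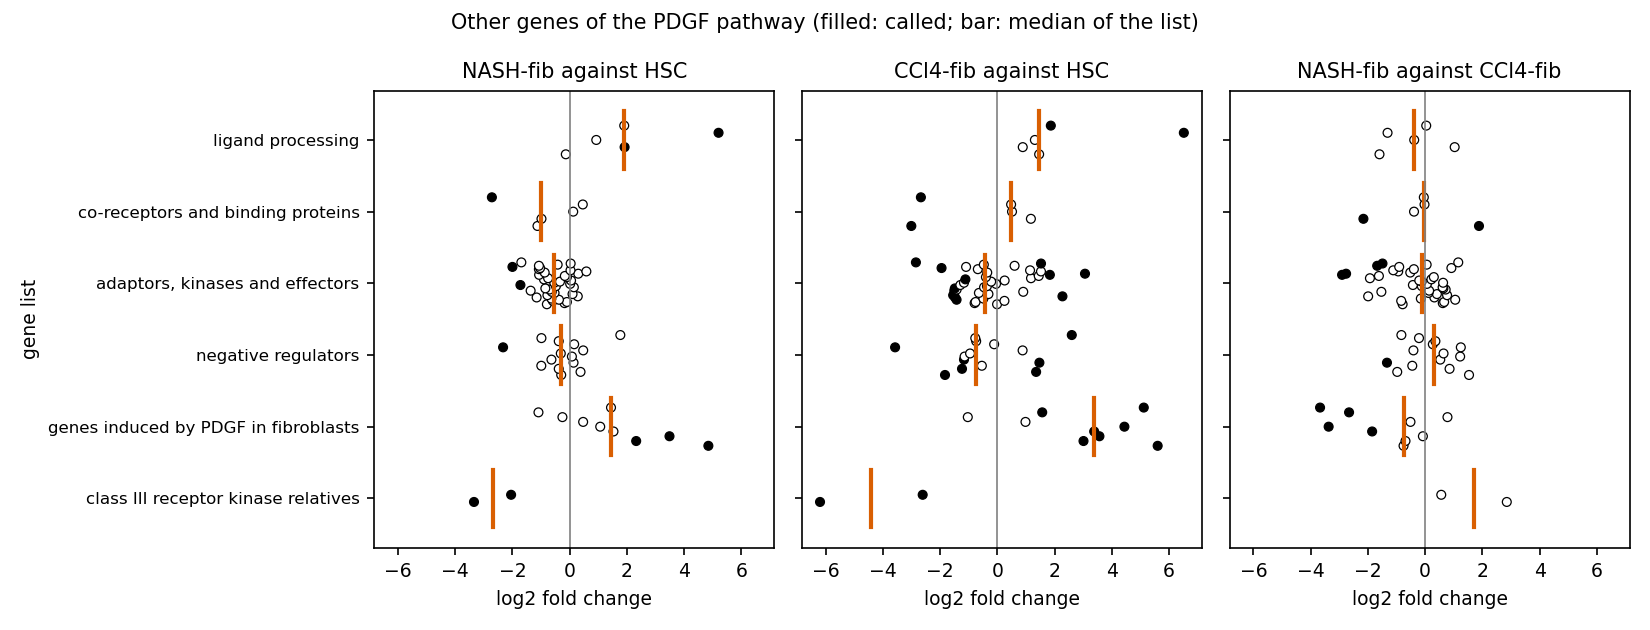
Log2 fold change (limma) of the tested genes of each pathway list in the 3 comparisons, 1 point per gene, filled where called, with a bar at the median of the list. The ligand-processing and PDGF-induced lists lie to the right of 0 by their medians against HSC (1.91 and 1.45 in NASH-fib, 1.46 and 3.38 in CCl4-fib), and both tested relatives of the PDGF receptors (Kit and Csf1r) lie to the left.

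Of 3 relatives of the PDGF receptors among the class III receptor kinases, 2 were tested, Kit and Csf1r. Both were called lower than in HSCs in each fibroblast group, beside 4.3% of all tested genes in NASH-fib and 11.7% in CCl4-fib. Kit, the stem cell factor receptor, had 222, 325 and 362 in HSC pools, 2.38, 18.7 and 0 in CCl4-fib pools, and 44.9, 13.4 and 37.4 in NASH-fib. HSC libraries lay above all others. The log2 fold change was -6.20 in CCl4-fib (SE 0.94, adjusted p = 0.00090) and -3.34 in NASH-fib (SE 0.94, adjusted p = 0.041), and 6 of 9 fits without 1 library lost the latter. The Kit call in NASH-fib was also lost with no filter, with a pseudocount of 0.5, with the replicate block and with the date as a term. CCl4-fib replicates 1 and 3 held 3 and 0 reads of Kit, at or under the floor, so the size of the fold in CCl4-fib is loose. It ran from -7.34 to -5.19 with 1 library left out. Csf1r, the macrophage growth factor receptor, was at 416 ± 181 in HSCs, 63.8 ± 19.3 in CCl4-fib (-2.61, adjusted p = 0.0038) and 99.8 ± 50.6 in NASH-fib (-2.05, adjusted p = 0.024), and the latter call was lost without HSC replicate 2 or 3 or NASH-fib replicate 2. The Csf1r call in NASH-fib was also lost in the fit of 2 groups only and with the date as a term. Flt3 was not tested and was at 0 in CCl4-fib. The 8 macrophage markers, of which Csf1r is one, summed to 2918 to 13425 in HSCs, 403 to 888 in CCl4-fib and 2842 to 5609 in NASH-fib. The HSC and NASH-fib sums overlapped, and no marker was at 0 in a group. Against HSCs, 3 of the 8 were called lower in NASH-fib and 5 in CCl4-fib, Csf1r among them in both. The part of macrophages in Csf1r was not tested.

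Markers of other cells differed between the same groups. Of all tested genes, 8.23% were called higher than in HSCs in NASH-fib and 16.2% in CCl4-fib. Portal fibroblast markers (5 of 6 called higher in each fibroblast group) summed to 156 to 199 in HSCs, 7070 to 9337 in CCl4-fib and 2424 to 5369 in NASH-fib. Mesothelial markers (5 of 5 in each) summed to 154 to 574, 9989 to 14579 and 5375 to 17927 in the same order, and Wt1 was called lower in NASH-fib than in CCl4-fib. The 8 smooth muscle and mural cell markers summed to 14797 to 27589, 5302 to 28934 and 28227 to 42870, with 7 called higher in each fibroblast group and Casq2 at 0 in HSCs. The remaining marker, Rgs5, was called lower in CCl4-fib than in HSCs and higher in NASH-fib than in CCl4-fib. CCl4-fib replicates 2 and 3, with sums of 5302 and 6822, lay below all HSC libraries. The 5 cholangiocyte markers summed to 63.1 to 226, 3475 to 4750 and 5963 to 11604, and the 8 hepatocyte markers to 25075 to 49723, 1811 to 2650 and 7157 to 30904. Leukocyte markers summed to 140 to 1324, 18.3 to 67.7 and 907 to 5180 over 6 genes, with Cd3e at 0 in CCl4-fib. Stellate cell markers (8 genes) summed to 26449 to 31599 in HSCs, 3082 to 3356 in CCl4-fib and 2044 to 3326 in NASH-fib, activated fibroblast markers (8 genes) to 6764 to 12067, 50998 to 57347 and 29058 to 33282, and proliferation markers (5 genes) to 221 to 230, 391 to 671 and 188 to 344. Between groups, the stellate cell sum was highest in HSCs, and the activated fibroblast sum was higher in both fibroblast groups than in HSCs. Within groups, the hepatocyte range overlapped the stellate cell range in HSCs and the activated fibroblast range in NASH-fib. Sums of different lists are not per kilobase. Of the 8 activated fibroblast markers, 6 were called higher and Postn lower in NASH-fib than in HSCs, and 7 were called higher in CCl4-fib. Of 7 tested stellate cell markers, 5 were called lower in NASH-fib than in HSCs and 4 in CCl4-fib. The shares of all tested genes called lower were 4.3% and 11.7%. The sort was on a collagen promoter, so the collagen genes of the list are not independent of the label. The part of the other cells in the levels of the PDGF genes was not tested.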

How the data were processed

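RNA of pooled liver cells was amplified with the SMARTer kit, and single-end reads were aligned to mm10 with STAR (CASAVA is also named in the submitters' processing notes; versions are not given in the sources used here). Per the file headers, HOMER counted reads of either strand on RefSeq exons, at most 3 per position, with 1 entry per gene, and a normalization over 10 libraries followed, of which 9 are columns. The authors deposited a signal per gene that is not a raw count. Whole reads were recovered from the step that 1 read makes in each library, and 100% of the values came out whole (tolerance 0.02 read). Averaged over its exons, no member exceeded 0.472 reads per base in a library. That average is of reads already limited to 3 per position, so it cannot show whether single positions reached the limit.

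Groups came from the sample titles. The test was limma (3.58.1, R 4.3.3, trend in the prior) on log2(value + 1) in 1 fit over 9 libraries, for 13651 genes kept by filterByExpr (minimum count 10) in edgeR (4.0.16). Called genes changed by at least 1 on the log2 scale with a Benjamini-Hochberg adjusted p under 0.05. The scripts were tested on simulated data. Alternatives were edgeR and DESeq2 (1.42.0) on recovered reads, upper-quartile scaling, no filter, pseudocounts of 0.5 and 4, fits on 2 groups, a replicate block, the date as a term, and each library left out. The members and gene lists were chosen with earlier results of these data known, and Pdgfb, Pdgfrb and Pdgfrl had no promoter entry. Named pathway genes are up to 3 called genes per direction, list and comparison with the largest log2 fold change, and named neighbours are the 3 genes with the highest r over 9 libraries. Markers are given as whole lists. P-values measure the spread between pools, for which no separate origin is stated beyond the pooling.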

Additional observations from a re-analysis of the deposited data

How the results depend on the processing

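Of 399 refitted fold changes of the members, 363 kept their direction and side of the threshold, 21 lost a call, 7 gained one and 8 turned sign. Members called in NASH-fib against HSCs (2) came to 1 in a fit of the 2 groups only, to 0 with the date as a term, and to 1 to 2 with 1 library left out, Pdgfd being called in each of these 9 fits. Members called in CCl4-fib against HSCs (3) came to 0 to 3 with 1 library left out, the 0 being without CCl4-fib replicate 2. In NASH-fib against CCl4-fib (0), 1 was called by edgeR, with upper-quartile scaling, with a pseudocount of 4 and with HSC replicate 2 and NASH-fib replicate 1 left out together (an alternative chosen after seeing the data), 2 by DESeq2, and 0 to 1 with 1 library left out; the 1 was Pdgfd without HSC replicate 2. Pathway genes called were 11, 32 and 11 in the order NASH-fib against HSCs, CCl4-fib against HSCs and NASH-fib against CCl4-fib. They came to 4, 19 and 7 with the date as a term, to 18 by DESeq2 and 7 with the replicate block in the last, and to 7 to 17, 18 to 39 and 3 to 11 with 1 library left out. Of the 11, 21 and 9 pathway calls named, 6, 12 and 2 were made in all 9 such fits, and 0 turned sign.

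Signs turned only for differences that were not called. With 1 library left out, Pdgfrb ran from -0.43 (without NASH-fib replicate 2; -0.21 without HSC replicate 2) to 0.83 in NASH-fib against HSCs and from -1.11 to 0.16 against CCl4-fib, the latter without NASH-fib replicate 1, with or without HSC replicate 2. Pdgfrl in NASH-fib against HSCs ran from -0.056 (without HSC replicate 2) to 1.25, Pdgfa in NASH-fib against CCl4-fib from -0.16 (without NASH-fib replicate 2) to 0.57, and Pdgfra in CCl4-fib against HSCs from -0.053 (without HSC replicate 3) to 0.23, beside -0.011 by edgeR. The difference in log2 Pdgfra to Pdgfrb ratio ran from -1.24 to 0.070, from -0.96 to -0.039 and from -0.69 to 0.62. The median over all genes in CCl4-fib against HSCs was 0.18 by limma, 0.092 with upper-quartile scaling and 0.0014 by edgeR, which differs in scaling (TMM), model and input. In NASH-fib against CCl4-fib these medians were -0.11, -0.0095 and 0.14. Relative to those medians, Pdgfd in the latter was 1.51 by limma and 1.37 by edgeR, Pdgfb 2.23 and 2.14, Pdgfc -1.59 and -1.63, and Pdgfrl -1.47 and -1.38. On the recovered reads, edgeR put 1095 genes up and 481 down in NASH-fib against HSCs and 1876 up and 1716 down in CCl4-fib against HSCs, where limma had 1124 and 587, and 2209 and 1592. The cause of these changes was not tested.

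Replicate numbers did not pair the libraries, since same-numbered libraries deviated together in no regular way (r from -0.47 to 0.51). With the replicate block, the members called were 2, 2 and 0, Pdgfrl in CCl4-fib against HSCs being lost (adjusted p = 0.063). Depth limited Pdgfb and Pdgfc most, with 2 to 88 and 7 to 251 reads in a library.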
